A study of Mus musculus with 2 samples.

Results

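The AP-1 transcription factors were followed as 10 genes, Fos, Fosb, Fosl1, Fosl2, Jun, Junb, Jund, Atf3, Batf and Maff, chosen by gene symbol in the annotation of the array platform. The annotation held 13 probes for 9 of them, out of 34885 probes with 1 gene symbol and 45281 probes in all, and Fosl1 had none listed. The tested sample was labelled TERC-/- (G3-mTERC-/- in the series title), a genotype without the RNA component of telomerase, the enzyme that extends chromosome ends. The control was labelled TERC+/+. Both were tibia of untreated female C57BL/6 mice aged 22 weeks, and each genotype was 1 pool of RNA from 3 mice on 1 Illumina mouse bead array, which carries biotin-labelled cRNA on short oligonucleotide probes. With 1 array per genotype there is no replicate, so the values have no error and no test, and every difference describes these 2 pools. The pooling hides the spread between mice.

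AP-1 is a family of basic leucine zipper proteins that bind DNA as dimers. Fos proteins (Fos, Fosb, Fosl1, Fosl2) bind only as partners of a Jun protein, while Jun proteins (Jun, Junb, Jund) also pair with each other. Atf3, Batf and Maff are related zipper proteins that join or compete with these dimers. Fos and Jun genes are immediate early genes, switched on within minutes by growth factors, cytokines and stress through MAP kinases. In bone, Fos is required for osteoclast formation, and Fosl1, Fosl2 and Fosb act in osteoblasts. In marrow, Junb restrains the growth of myeloid cells.

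Fos, Junb and Batf were higher in the TERC-/- pool, by 6.56-fold, 3.98-fold and 2.60-fold, and no AP-1 gene was lower by as much as 2-fold. Jun and Jund lay slightly lower in TERC-/-, within 2-fold. These folds compare normalized intensities, meaning the non-normalized signal after background correction with the normexp model and quantile normalization. A probe counted as detected at a detection p-value under 0.01, the share of negative-control features that were as bright. Of the 10 genes, 7 had a detected probe on at least 1 array and 6 on both. Of the 7, 3 lay 2-fold or more above TERC+/+ (42.9%) and 0 lay that far below. Among all 9953 detected genes, 6.86% lay 2-fold or more above and 8.81% that far below. The median log2 difference, TERC-/- minus TERC+/+, was 0.82 over the 7 AP-1 genes and 0.01 over all detected genes. Of the 7 differences, 5 were above 0 and 2 below.

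The promoter windows of the 3 genes past 2-fold are printed with that of Jun, the partner of Fos that lay within 2-fold, so that their letters can be compared. The windows run from 250 bases before to 50 bases after the RefSeq gene start (GRCm38.p6), 5′ to 3′ on the gene's strand. Capitals mark any of 5 motifs searched on both strands. They were TGACTCA, the AP-1 site, TGACGTCA, the cAMP response element, its variant TGACATCA, known from the Jun promoter, TGACGT, and TATAAA. Each TGACGTCA also holds TGACGT on both strands. Fos is at chr12:85473640-85473939 on the plus strand, Junb at chr8:84978699-84978998 on the minus strand, Batf at chr12:85686470-85686769 on the plus strand and Jun at chr4:95052173-95052472 on the minus strand.
Fos: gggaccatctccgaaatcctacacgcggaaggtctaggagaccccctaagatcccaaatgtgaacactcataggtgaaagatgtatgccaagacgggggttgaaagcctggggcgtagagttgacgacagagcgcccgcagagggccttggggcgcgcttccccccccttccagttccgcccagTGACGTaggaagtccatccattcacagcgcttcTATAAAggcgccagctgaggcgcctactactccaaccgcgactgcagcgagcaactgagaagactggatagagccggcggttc
Junb: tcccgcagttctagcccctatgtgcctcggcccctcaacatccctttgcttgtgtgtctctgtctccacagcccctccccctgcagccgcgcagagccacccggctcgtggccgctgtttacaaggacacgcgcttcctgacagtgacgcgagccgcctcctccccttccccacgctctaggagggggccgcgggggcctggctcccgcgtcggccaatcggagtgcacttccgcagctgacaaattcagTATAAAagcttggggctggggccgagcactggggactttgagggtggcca
Batf: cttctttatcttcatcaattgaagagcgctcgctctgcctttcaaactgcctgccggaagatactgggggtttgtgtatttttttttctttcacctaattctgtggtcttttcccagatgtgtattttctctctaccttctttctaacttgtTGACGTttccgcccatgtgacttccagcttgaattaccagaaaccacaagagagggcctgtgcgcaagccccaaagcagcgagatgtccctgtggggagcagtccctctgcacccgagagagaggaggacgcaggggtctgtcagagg
Jun: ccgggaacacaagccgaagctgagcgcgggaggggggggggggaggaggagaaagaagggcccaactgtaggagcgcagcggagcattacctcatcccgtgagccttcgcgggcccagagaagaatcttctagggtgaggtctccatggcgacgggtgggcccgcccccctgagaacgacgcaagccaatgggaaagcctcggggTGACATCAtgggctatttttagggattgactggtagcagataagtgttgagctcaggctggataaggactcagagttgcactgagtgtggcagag

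The Fos window held TGACGT beginning 66 bases before the start and TATAAA beginning 33 bases before it. The Batf window held TGACGT beginning 98 bases before the start. The Junb window held TATAAA at bases 1 to 6 from the start, and Jun held TGACATCA beginning 45 bases before its start. The 9 AP-1 genes with a window had 11 windows. TGACGT was in 4 of the 11 (1 each of Fos, Atf3, Batf and Maff) and in 7.51% of all 32851 windows. TGACATCA was in 2 of the 11 (1 each of Jun and Maff) and in 3.62% of all windows. TGACGTCA was in 1 of the 3 Maff windows and in 1.79% of all. TATAAA was in 2 of the 11 (Fos and Junb) and in 13.6% of all windows. TGACTCA was in none of the 11 AP-1 windows and in 5.20% of all. These are matches of letters, and no binding was measured.

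Among the Fos proteins, Fos had the largest difference of the family. Its 1 probe read 1961 in TERC-/- and 374 in TERC+/+ in non-normalized intensity, and the log2 normalized values were 10.79 in TERC-/- and 8.08 in TERC+/+. The difference of 2.71 ranked 9 among the 8781 genes detected on both arrays, counted from the highest. Fosl2, also called Fra-2, had 1 detected probe, with an intensity of 2062 in TERC-/- and 1135 in TERC+/+, a log2 difference of 0.82 or 1.76-fold. Of the genes detected on both arrays, 10.7% had a higher difference than Fosl2. The other 2 Fosl2 probes were at background on both arrays, at 127 and 123 in TERC-/- and 110.1 and 111 in TERC+/+, and carry no information on the gene. Fosb, which lies close to Fos in sequence and function, was not detected, with 153 in TERC-/- (detection p-value 0.053) and 128 in TERC+/+ (0.12).

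**Figure D1:**
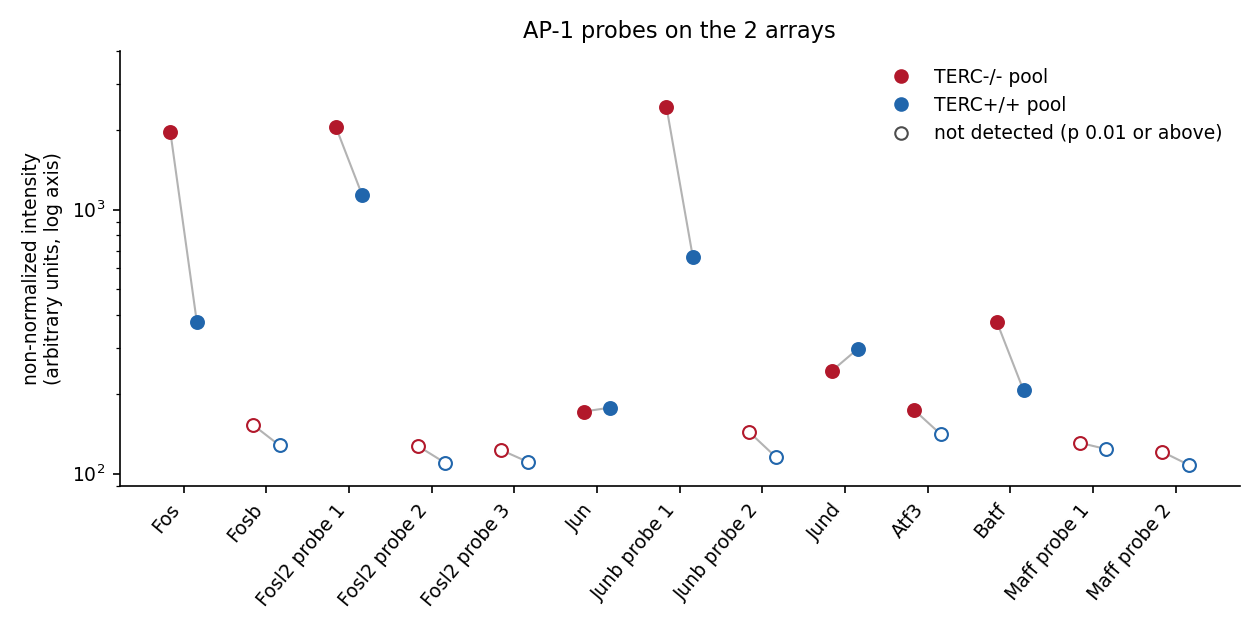
Non-normalized intensity (arbitrary units, log axis) of the 13 AP-1 probes, with the TERC-/- pool on the left of each pair and the TERC+/+ pool on the right, and open circles for probes not detected. The steepest pairs are Fos, at 1961 in TERC-/- and 374 in TERC+/+, and the first Junb probe, at 2455 in TERC-/- and 661 in TERC+/+.

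The Jun proteins did not move together. Junb, a Jun protein that often opposes Jun, read 2455 in TERC-/- and 661 in TERC+/+ on its probe to the RefSeq transcript. The log2 values were 11.13 in TERC-/- and 9.14 in TERC+/+, a difference of 1.99 that ranked 46 of 8781 from the highest. A second Junb probe, designed on a separate cDNA, was not detected on either array, with 144 in TERC-/- and 116 in TERC+/+. Jun itself, the founding Jun protein and main partner of Fos, was dim, at 172 in TERC-/- and 178 in TERC+/+, with a log2 difference of -0.24. Jund, the member that most cells express at rest, read 245 in TERC-/- and 298 in TERC+/+, with a log2 difference of -0.49. Of the genes detected on both arrays, 69.7% had a higher difference than Jun and 80.0% a higher one than Jund. Jun and Jund thus sat in the body of all genes, slightly to the lower side, while Junb sat near the top.

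The 3 related zipper proteins gave 1 gene past 2-fold. Batf, which pairs with Jun proteins and is known for its part in T and B lymphocytes, read 374 in TERC-/- and 207 in TERC+/+. Its log2 values were 8.05 in TERC-/- and 6.67 in TERC+/+, and the difference of 1.38 ranked 259 of 8781. The non-normalized ratio was 1.81, and the log2 difference without background correction was 0.84, both under 2-fold. Atf3, a stress-induced factor, was detected in TERC-/- only, at 174 (detection p-value 0.0043) against 141 in TERC+/+ (0.034), a non-normalized ratio of 1.24. On the background-corrected scale, set against the dimmest detected signal of the TERC+/+ array, Atf3 was at least 1.35-fold higher, a bound that holds for that scale alone. The log2 difference was 0.23 without background correction and 0.21 in the deposited values. Maff, a small Maf protein without an activation domain, had 2 probes at background, at 131 and 121 in TERC-/- and at 124 and 108 in TERC+/+.

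**Figure D2:**
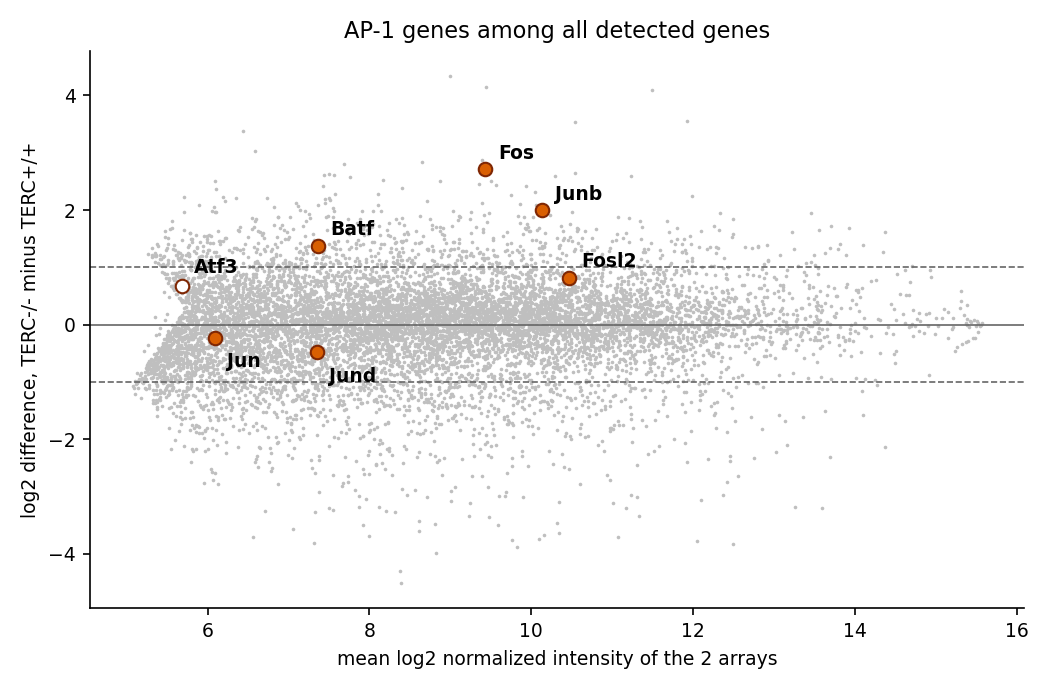
Log2 difference, TERC-/- minus TERC+/+, against the mean log2 normalized intensity for the 9953 detected genes (grey), with AP-1 genes in orange and dashed lines at 2-fold. Fos at 2.71, Junb at 1.99 and Batf at 1.38 lie above the upper line, and the open circle is Atf3, detected in TERC-/- only.

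Fos and Junb stayed past 2-fold under the 6 alternatives that recompute a gene's value, and Batf and Fosl2 changed sides. Fos ranged from 2.32 to 2.86 and Junb from 1.22 to 2.17 over the 6 alternatives that can change a gene's value. Without background correction, 2 of 7 genes were at least 2-fold higher, Fos and Junb, where 3.58% of all detected genes were. The authors' deposited processed values gave the same 2 genes, with 3.64% of all, and a Batf difference of 0.85. With the arrays scaled to a common median, Fosl2 joined the 3 at 1.02, making 4 of 7 with 8.61% of all. That scaling also put the median of all genes at 0.13, and relative to it Fosl2 stood at 0.90. At a threshold of 3-fold, Fos and Junb were past it, with 1.76% of all, and at 1.5-fold Fos, Junb, Batf and Fosl2 were, with 17.0% of all. No AP-1 gene was past the threshold on the lower side in any setting, and Jun and Jund were below 0 in each.

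**Figure D3:**
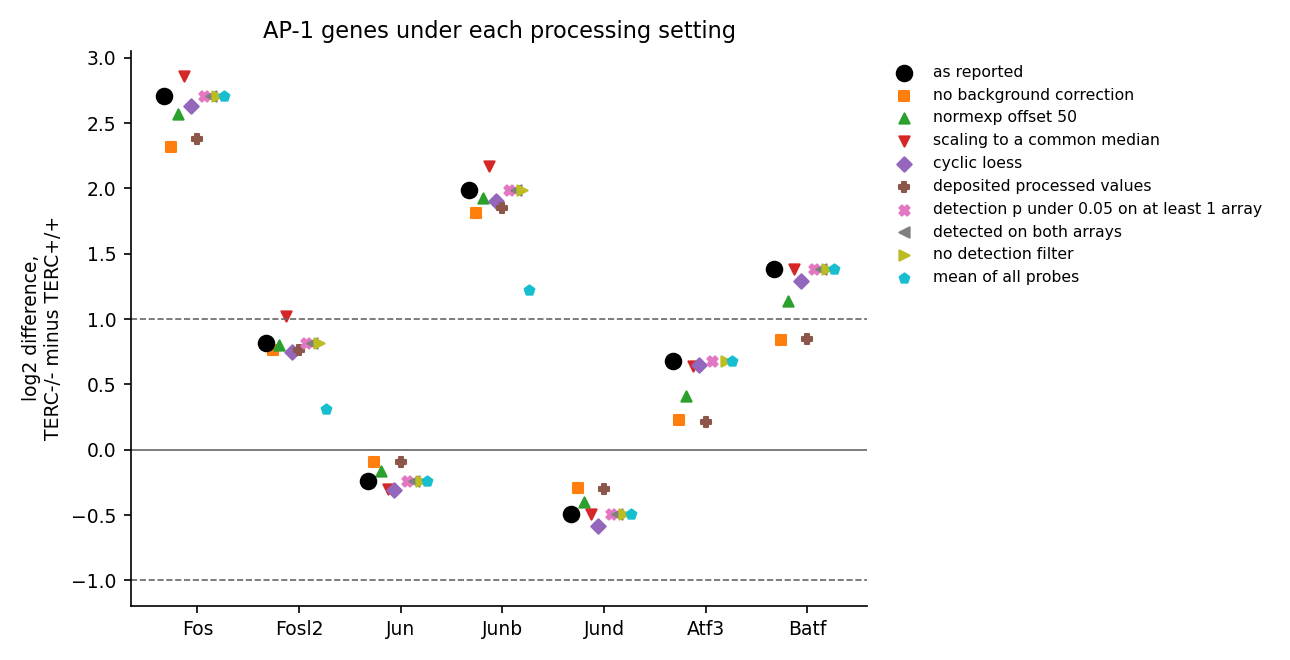
Log2 difference, TERC-/- minus TERC+/+, of the 7 detected AP-1 genes as reported (black) and under 9 alternatives, 3 of which only select genes, with dashed lines at 2-fold. Fos and Junb lie above 1 throughout, Batf is at 0.84 without background correction and at 0.85 in the deposited values, and the mean of all probes lowers Junb to 1.22 and Fosl2 to 0.31.

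Fos and Batf lie near each other on mouse chromosome 12 in the RefSeq table of GRCm38.p6. Of the 6 genes listed from Fos to Batf, 3 are protein-coding, namely Fos, Jdp2 and Batf, and all 3 encode AP-1 type zipper proteins. Jdp2, a Jun dimerization protein that acts as a repressor, read 1337 in TERC-/- and 761 in TERC+/+, a log2 difference of 0.84 or 1.79-fold. It was named after its value was seen. Fos and Batf, which bound the stretch, were already among the genes past 2-fold, so Jdp2 alone adds a value, within 2-fold. Of all 9953 detected genes, 5054 had differences above 0.

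Other zipper proteins differed less than Fos and Junb. The median over 8 detected AP-1 relatives and dimer partners was 0.13. Of the 8, 0 passed 2-fold downwards and 1 upwards (12.5%, beside 6.86% of all detected genes). It was Cebpb, a factor of myeloid and stress responses, at 9541 in TERC-/- and 2670.2 in TERC+/+, or 3.29-fold. Of 6 detected Maf and cap-n-collar proteins, which share partners with Maff, none reached 2-fold and the median was 0.11. Within that list, Mafk was above background only on the TERC+/+ array, at 154 in TERC-/- and 181 in TERC+/+ in non-normalized intensity. On the background-corrected scale alone, that puts TERC-/- lower by 1.30-fold or more. Bach1, a repressor of heme-responsive genes, differed by 0.46.

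Most detected immediate early genes outside AP-1 lay above TERC+/+, several only slightly, with 1 large exception. Of 18 detected, 14 had differences above 0 and 4 below, and the median was 0.22. Of all 9953 detected genes, 5054 had differences above 0. Upwards 4 passed 2-fold (22.2%, beside 6.86% of all detected genes), and downwards 1 did (5.56%, beside 8.81%). Ier3, an early response gene, was 3.26-fold higher, at 1994 in TERC-/- and 652 in TERC+/+. Gadd45b, a stress-response protein, was 2.61-fold higher on 1 probe, with its other detected probe at 0.53. The non-normalized intensities of the Gadd45b probe used, 491 in TERC-/- and 251 in TERC+/+, were slightly less than 2-fold apart. Csrnp1 was 2.31-fold higher. Trib1 was above background only on the TERC-/- array, at 221 in TERC-/- and 139 in TERC+/+ in non-normalized intensity. On the background-corrected scale alone, Trib1 was at least 2.34-fold higher. The exception was Ppp1r15a, also called Gadd34, which reverses the stress block on translation. It read 910 in TERC-/- and 4709 in TERC+/+, or 6.19-fold lower. Egr1, an early gene that shares inducers with Fos, differed by 0.03 and was named after its value was seen.

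Upstream of AP-1, 16 MAP kinases and activators were detected. Of these, 3 passed 2-fold upwards (18.8%, beside 6.86% of all detected genes) and 1 downwards (6.25%, beside 8.81%). Their median was 0.28. Mapk13, the delta form of p38, was 4.95-fold higher, at 2559.9 in TERC-/- and 578 in TERC+/+, and its other probe was at 2.40. Map3k8, a kinase of the toll-like receptor pathway, was 2.27-fold higher. Its non-normalized intensities, 382 in TERC-/- and 225 in TERC+/+, were less than 2-fold apart. Map2k6, a p38 activator, was at 1.02, but its other detected probe was at -0.72. The probe used read 192 in TERC-/- and 142 in TERC+/+, less than 2-fold apart. That 142 is level with Atf3, which was not detected there at 141. The other probe read 141 in TERC-/- and 156 in TERC+/+. No bound was applied to Map2k6, so its count as past 2-fold rests on a background reading. Mapk12, the gamma form of p38 known from muscle, was 2.03-fold lower on the probe used, and its other detected probes, at -0.83 and -0.85, lay within 2-fold. The Mapk12 probe used read 209.6 in TERC-/- and 309.8 in TERC+/+, less than 2-fold apart. The other probes were dimmer, at 146 and 167 in TERC-/- and 167 and 209 in TERC+/+. Mapk8, which encodes the Jun kinase JNK1, differed by -0.09 and was named after its value was seen.

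Detected factors that act on Fos and Jun promoters numbered 9. Upwards 2 passed 2-fold (22.2%, beside 6.86% of all detected genes), and downwards 1 did (11.1%, beside 8.81%). The 2 were Rps6ka3, a kinase below ERK, at 1.12, and Mrtfa, a partner of serum response factor, at 1.07. Their non-normalized intensities were 393 and 211 in TERC-/- and 235 and 151 in TERC+/+, each less than 2-fold apart. Mef2c, a factor of muscle and lymphoid cells, was 2.51-fold lower, with 3 further detected probes between -1.59 and -1.11. The median was 0.51. Of 10 detected feedback inhibitors of MAP kinase signalling, Dusp1, an immediate early phosphatase, was 2.27-fold higher, at 3993 in TERC-/- and 1641 in TERC+/+. Dusp8 was above background only on the TERC+/+ array, at 167 in TERC-/- and 383 in TERC+/+ in non-normalized intensity. On the background-corrected scale alone, that puts TERC-/- lower by 4.76-fold or more. The median of the inhibitors was -0.29.

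Among textbook AP-1 target genes, 14 were detected, 8 with differences above 0 and 6 below, around a median of 0.25. Upwards 2 passed 2-fold (14.3%, beside 6.86% of all detected genes), and downwards 2 did (14.3%, beside 8.81%). Plaur, the urokinase receptor, was 3.48-fold higher, at 1457 in TERC-/- and 477 in TERC+/+. The cytokine Tnf was 2.83-fold higher, with its second probe at 1.82. The non-normalized intensities of the Tnf probe used, 323 in TERC-/- and 180 in TERC+/+, were less than 2-fold apart. Gja1, the gap junction protein connexin 43, was 2.91-fold lower, and Hmox1, heme oxygenase, 2.66-fold lower. Mmp13, a collagenase and textbook AP-1 target in bone, read 14878 in TERC-/- and 10411 in TERC+/+, a difference of 0.33, and was named after its value was seen. Of 9 detected bone genes tied to AP-1, 0 passed 2-fold upwards and 2 downwards (22.2%, beside 8.81% of all detected genes). The median of these bone genes was -0.24. The 2 were Bglap, osteocalcin, at -3.82 (its other detected probe at -2.71) and Col1a2, a collagen chain, at -3.12, which are also osteoblast markers. That other Bglap probe read 325 in TERC+/+ and 142 in TERC-/-, near the TERC-/- array median of 138. Nfatc1, the osteoclast regulator that Fos activates, differed by 0.37, with 3 further detected probes between 0.39 and 0.62, and was named after its value was seen.

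Heat-shock genes, which can rise when tissue is stressed during handling, were mostly on the lower side. The part of handling in the AP-1 differences was not tested. All 7 detected genes had differences below 0 on the probe used, around a median of -0.67. Hspa8 differed by -0.27, with its further detected probes at -0.22 and 0.27. Downwards 1 of the 7, Hsph1 at -1.21, passed 2-fold (14.3%, beside 8.81% of all detected genes). Hspa1a was above background only on the TERC+/+ array, at 150.5 in TERC-/- and 171 in TERC+/+, and Hspa1b was not detected.

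**Figure D4:**
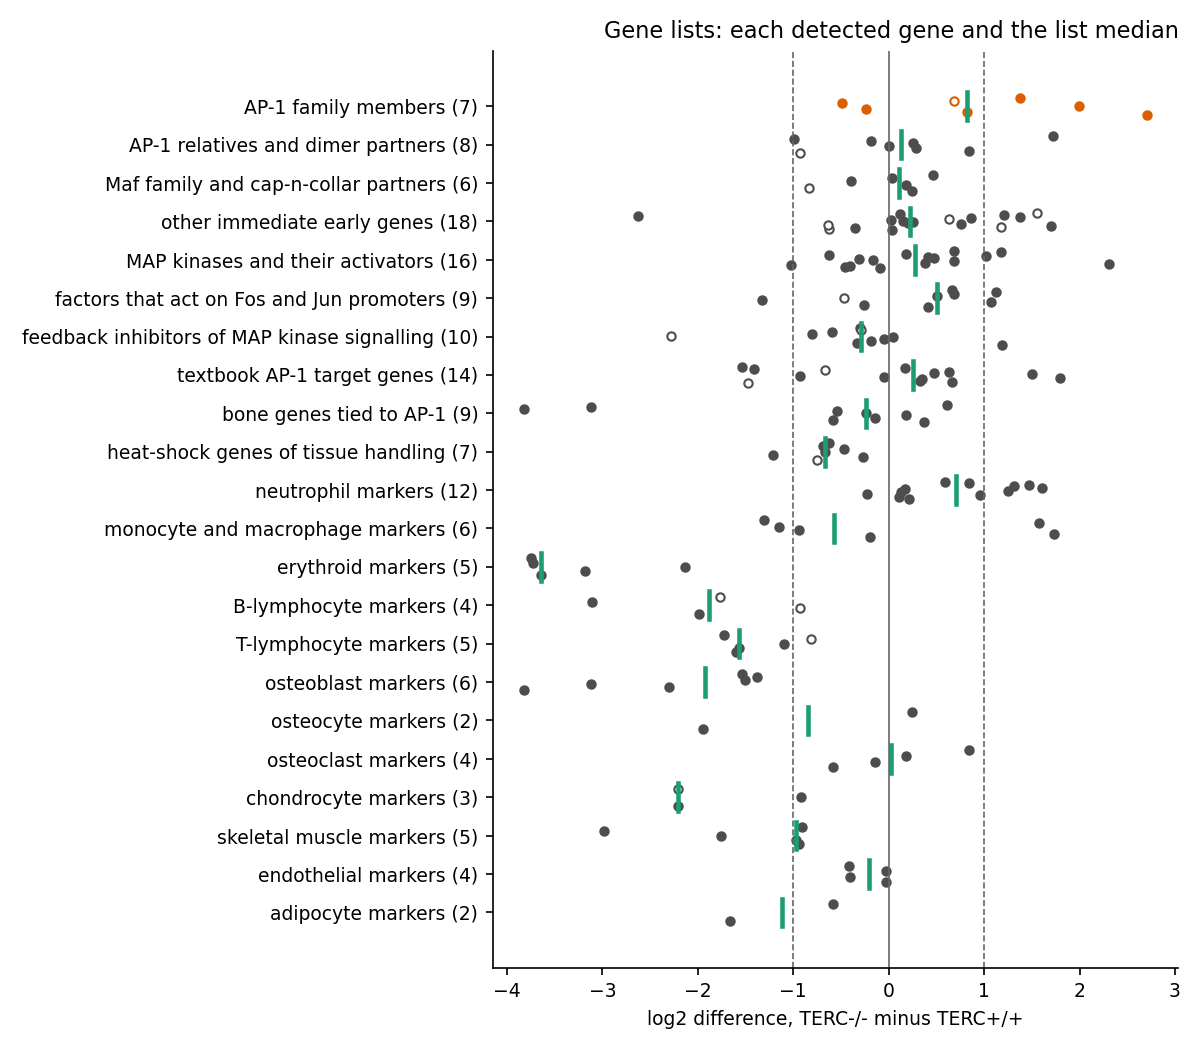
Log2 difference, TERC-/- minus TERC+/+, of each detected gene (points) in 10 pathway lists and 12 cell-type marker lists, with the number detected in brackets, the list median as a green bar and open circles for genes detected on 1 array only. The AP-1 median is 0.82, the neutrophil median 0.71 and the erythroid median -3.64.

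Markers of several cell types also differed between the 2 pools, in both directions. Among all detected genes, 6.86% lay 2-fold or more above TERC+/+ and 8.81% that far below. Of 12 neutrophil markers, all detected on both arrays, 4 passed 2-fold upwards (33.3%) and 0 downwards. The 4 were Prtn3, Mmp8, Cxcr2 and Elane, from 1.25 to 1.61. The median was 0.71, and the summed normalized signal was 393645 in TERC-/- and 290089 in TERC+/+. The brightest of these probes lay near the top of the array's range, such as Lcn2 at 51149 in TERC-/-, where the highest probe read 54575. Dimmer probes gave other values, with Mpo at 0.17 on the probe used and 0.64, 1.42 and 1.99 on 3 others, and Ltf at -0.23 and 0.86. The median and the sum rest on the brightest probes. Of 6 monocyte and macrophage markers, Cd14 at 1.73 and Ccr2 at 1.57 were higher and Cx3cr1 and Mrc1 lower, and the sums were 4152 in TERC-/- and 5820 in TERC+/+. All 5 detected erythroid markers were at least 2-fold lower, with Ermap at -3.75 and Slc4a1 at -2.13 as the ends. The erythroid sums were 14302 in TERC-/- and 85742 in TERC+/+. The other detected Ermap probe, at -0.65, was dim, at 157 in TERC-/- and 178 in TERC+/+. Lower too were 3 of 4 B-lymphocyte markers (Vpreb3, Cd79b and Cd22) and 4 of 5 T-lymphocyte markers (Il7r, Cd3e, Cd3g and Cd3d), though Cd22 and Cd3e each had a further detected probe within 2-fold, at -0.74 and -0.89. The further Cd22 probe was dim, at 141 in TERC-/- and 157 in TERC+/+. Lower as well were all 6 detected osteoblast markers, from -3.82 for Bglap to -1.38 for Ibsp. The osteoblast sums were 7806 in TERC-/- and 48427 in TERC+/+. Phex, Col2a1, Col10a1, Mb, Myh1 and Adipoq were the osteocyte, cartilage, muscle and adipocyte markers past 2-fold, all lower. No osteoclast or endothelial marker was past 2-fold, with Tcirg1 at 0.84 and Acp5 at -0.58, and Emcn at -0.42 and Pecam1 at -0.40. For Tcirg1 the 3 dimmer detected probes were at 0.98, 1.47 and 1.98, so that its probes fell on both sides of 2-fold as normalized. Those at 1.47 and 1.98 read 202 and 218 in TERC-/- and 132 and 121 in TERC+/+. The TERC+/+ readings lay near that array's median of 127, so these 2 differences are set against background.

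The label of bone was borne out by osteoblast markers on both arrays, while the osteocyte markers Dmp1, Sost and Fgf23 were not detected on either. Fabp4, Plin1, Pax5, Cd8a, Calcr, Kdr, Matn1 and Epb42 were likewise not detected on either array. In such bulk tissue, fewer cells of a type and less RNA per cell cannot be told apart. The part of the changed cell mix in the AP-1 differences was not tested. The only Terc probe was not detected, at 112 on both arrays, so the arrays give no check of the genotype.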

How the data were processed

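Non-normalized intensity and a detection p-value per probe were deposited for each array, per the file headers, and the intensity is linear with a minimum of 97.3 in TERC-/- and 88.7 in TERC+/+. A second table of intensity values, normalized by the authors in a way not given in the sources used here, was used as an alternative. The software and versions behind both tables were likewise not given. The median intensity was 138 in TERC-/- and 127 in TERC+/+, with 15363 detected probes in TERC-/- and 16640 in TERC+/+. Precision is limited by there being 2 arrays.

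Background was corrected with function nec of limma 3.58.1 (R 4.3.3, offset 16), followed by quantile normalization and log2. The brightest probe by mean represented a gene, and genes with a probe detected at p under 0.01 on at least 1 array were counted at 2-fold, a rule of size. A gene with all probes at background on 1 array was counted by a bound, against the higher of that array's lowest detected signal and its own value. No bound was set for single probes, so a further probe called detected can be at background on 1 array. Symbols came from the platform annotation, checked through Entrez IDs, and 18 probes with several genes were left out. Promoters were RefSeq's. The procedure was tested on simulated data. Of 100 probes with a true 2-fold change, 36% passed 2-fold, and of 100 with a true 4-fold change, 100% did. Of 11819 unchanged probes, 0% did. The noise was set by hand, and no scored probe was simulated as dim as Jun or Atf3 in TERC+/+. Figures used matplotlib 3.10.9.

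The members and the 22 lists were chosen with earlier results of these data known. Named are all members and, in each other list, genes past 2-fold (at most the 6 largest) or else the 2 largest, unless said otherwise. Alternatives were no background correction, an offset of 50, median scaling, cyclic loess, the deposited values, 3 detection filters, the mean of probes and thresholds of 1.5-fold and 3-fold.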

Additional observations from a re-analysis of the deposited data

How the results depend on the processing

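No paired analysis was possible because each genotype has 1 array. The count of AP-1 genes at least 2-fold higher was between 2 and 4 and the count lower was 0 under all 11 alternatives, and the AP-1 median ranged from 0.68 to 1.10 over the 9 alternatives other than the fold thresholds. The 3 detection filters only select genes and left each gene's difference as it was. Of the 37 differences that the other 6 alternatives could change, 36 lay within 1.5-fold of the reported one and 0 changed sign. The 1 other was Junb, at 1.22 when its undetected probe was averaged in. All 81 recomputed medians of the other 9 pathway lists lay within 1.5-fold of the reported ones. Most of the reported medians were themselves smaller than 1.5-fold, so this margin does not show that their direction held. The AP-1 relatives' median was -0.07 with no detection filter. Over all detected genes, 683 passed 2-fold upwards and 877 downwards as reported, against 356 and 487 without background correction and 362 and 506 with the deposited values. At 1.5-fold they were 1689 and 1693, at 3-fold 175 and 305, and 579 were lower with the mean of probes. Signal over background limits Jun, Atf3 and Batf most, since their intensities on at least 1 array lay between 141 and 207, beside array medians of 138 in TERC-/- and 127 in TERC+/+.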
